A study of Mus musculus with 14 samples.

Results

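Akr1c18 and Calca are 2 of the 10303 named genes counted in sorted thymic NKT cells of mice given dexamethasone, a synthetic glucocorticoid that shrinks the thymus by killing immature thymocytes. Both were chosen by their raw counts per library, which fell between 18 h and 3 d after the injection, so the difference between those times is a description of the choice, and since the same 18 h and 3 d libraries enter the comparisons with vehicle, all folds of both genes are given with their errors and with no test. The pair was proposed as genes lost late. Akr1c18 fitted that name, with 4 counts in all 4 libraries of 3 d together, whereas Calca was high at 18 h alone and at 3 d lay close to its low level under vehicle.

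The animals were young male wild-type (WT) mice, with no allele or transgene named. The 3 d group (n = 4) and the 18 h group (n = 5) received dexamethasone into the peritoneum at 200 ug per 10 g of body weight, and the vehicle group (n = 5) received 8% EtOH. The vehicle mice were taken 3 d after injection, so the 18 h group has no vehicle of its own time, and time since injection and treatment cannot be told apart in that comparison. Poly(A) RNA of the sorted cells was read by MARS-seq, which counts the 3′ ends of transcripts, and the labels do not say whether a library is 1 mouse or a pool, so p-values measure only the spread between these samples.

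Akr1c18 encodes 20α-hydroxysteroid dehydrogenase, a cytosolic aldo-keto reductase that inactivates progesterone, and it is best known in the mouse ovary, where its rise ends the life of the corpus luteum. Calca encodes, by alternative splicing of 1 transcript, calcitonin in thyroid C cells and calcitonin gene-related peptide (CGRP) in sensory neurons. CGRP dilates blood vessels and acts on immune cells through CALCRL, a G-protein-coupled receptor that needs RAMP1 as its partner and raises cAMP. NKT cells are T cells that see lipids on CD1d, and their thymic subsets are named for the transcription factors and cytokines they share with helper T cells.

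On GRCm38 with the GENCODE M21 annotation, Akr1c18 (ENSMUSG00000021214.14) lay at chr13:4132615-4150654 on the minus strand, 18040 bases with 2 coding transcripts of 8 and 9 exons. Calca (ENSMUSG00000030669.13) lay at chr7:114631478-114636357 on the minus strand and spanned 4880 bases. Neither gene overlapped another gene of the annotation. The closest relatives were Akr1c13, 40496 bases from Akr1c18, and Calcb, 82286 bases from Calca, and none of the 270 stretches of 31 bases in the last 300 bases of each main transcript occurred in the transcripts of another gene. The long Calca transcript ended at base 114631478 and a shorter coding one at 114633293, and since the deposited table holds 1 count per gene, it does not tell calcitonin mRNA from CGRP mRNA.

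The promoters of both genes are shown because both had their highest group mean at 18 h. For Akr1c18 the 18 h and vehicle libraries overlapped, so a rise at 18 h is not established for it. RefSeq gives them on GRCm38.p6, minus strand, as chr13:4150597-4150896 for Akr1c18 and chr7:114636308-114636607 for Calca, each running from 250 bases before the start of transcription to 50 bases after it. Capitals mark matches to any of 9 short motifs searched on both strands.
Akr1c18: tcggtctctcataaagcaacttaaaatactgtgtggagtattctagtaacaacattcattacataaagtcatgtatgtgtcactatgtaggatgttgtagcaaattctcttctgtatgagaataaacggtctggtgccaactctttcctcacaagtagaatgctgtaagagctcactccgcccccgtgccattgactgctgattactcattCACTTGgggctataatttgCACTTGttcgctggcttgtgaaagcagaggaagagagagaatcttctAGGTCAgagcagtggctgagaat
Calca: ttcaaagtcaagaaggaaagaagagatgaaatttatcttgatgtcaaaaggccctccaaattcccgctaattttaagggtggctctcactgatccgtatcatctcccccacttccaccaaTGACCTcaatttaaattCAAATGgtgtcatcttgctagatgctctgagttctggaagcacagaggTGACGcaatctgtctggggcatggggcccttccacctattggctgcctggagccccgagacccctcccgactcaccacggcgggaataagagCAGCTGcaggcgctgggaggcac

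Neither window held the palindromic glucocorticoid response element, made of AGAACA and its reverse complement 3 bases apart, found in 0.00913% of the 32851 promoters of the same length, nor the half-site AGAACA alone, found in 19.0% of them. The nuclear receptor half-site AGGTCA stood once in each window, at +28 to +33 in Akr1c18 and on the minus strand at -130 to -125 in Calca, and 16.3% of promoters held it. Calca alone had a cAMP response half-site TGACG, at -65 to -61, which 20.8% of promoters held, and the full element TGACGTCA (1.79% of promoters) was in neither. Each window had 2 E-boxes, CANNTG, a motif present in 72.3% of promoters, at -39 to -34 and -20 to -15 in Akr1c18 and at -113 to -108 and +28 to +33 in Calca. The E-box reads alike on both strands, and no marked match overlapped another. The letters of the NR4A element AAAGGTCA (1.51% of promoters), the AP-1 site TGANTCA (7.81%) and the TATA box TATAAA (13.6%) were in neither window. These matches describe the letters and are not evidence of binding.

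Libraries held 977037 to 2203273 counts (median 1424351), so 1 count was worth 0.471 to 1.11 CPM. CPM are counts scaled to a common library size after TMM, which corrects for the makeup of each library, and 7965 genes passed the filter on low counts. Both Akr1c18 and Calca passed it through the 18 h libraries, where each had its highest mean, and neither passed it with the 3 d and vehicle libraries alone. Of the 8 NKT identity genes 5 were listed: Cd3d, Cd3e, Cd3g, Cd44 and Zbtb16. Their summed level was 1201 to 1570 CPM at 3 d, 962 to 2080 CPM at 18 h and 1770 to 2300 CPM under vehicle. Most of this sum came from the CD3 chain genes, which are not particular to NKT cells. Zbtb16 averaged 18.2 CPM at 3 d, 49.4 CPM at 18 h and 69.1 CPM under vehicle. The 18 h replicates 2 and 3 stood apart by the thymocyte gene Cd8b1, at 1008 and 648 CPM against 9.43 to 71.2 CPM in the other 12 libraries, and calls that were lost without these 2 libraries are given with their values.

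Akr1c18 was nearly gone at 3 d. The 3 d libraries held 2, 1, 1 and 0 Akr1c18 counts, which is 1.33, 0.948, 0.847 and 0 CPM, and the 0 allows a level of up to 2.07 CPM in that library, counting error only. The 18 h libraries held 13, 14, 28, 57 and 55 counts, or 10.9, 11.98, 20.6, 26.9 and 37.8 CPM. The vehicle libraries held 9, 20, 27, 33 and 9 counts, or 4.57, 22.2, 13.7, 18.2 and 6.94 CPM. Every 3 d library lay below every other library, while the 18 h and vehicle libraries overlapped.

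**Figure D1:**
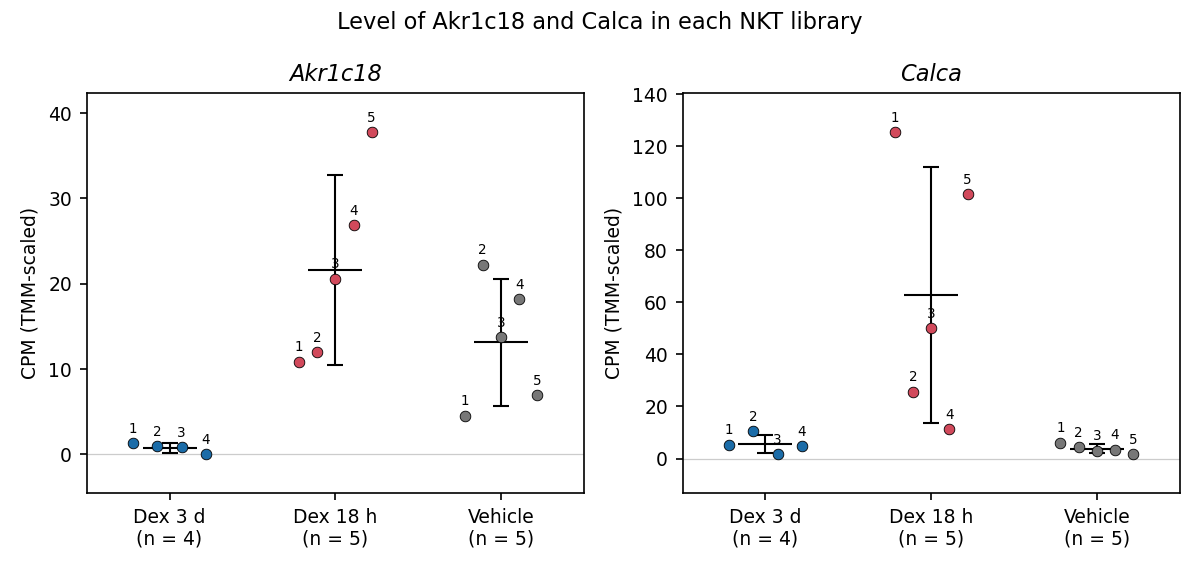
Akr1c18 (left) and Calca (right) in each library, in TMM-scaled CPM on a linear axis, for 3 d, 18 h and vehicle; each numbered point is a library, and bars are the mean and SD. The 4 Akr1c18 points of 3 d lie at or below 1.33 CPM, and the Calca points of 18 h spread between 11.3 and 125.4 CPM above all others.

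The means of Akr1c18 were 0.781 ± 0.560 CPM at 3 d (SD, n = 4), 21.6 ± 11.2 CPM at 18 h (SD, n = 5) and 13.1 ± 7.43 CPM under vehicle (SD, n = 5). Against vehicle, Akr1c18 was 15.0-fold lower at 3 d, a log2 fold change of -3.90 ± 0.71 (SE) in the edgeR fit, and it was lower in 4 of 4 libraries. In that comparison 12.2% of the genes tested had 3 d libraries all below the vehicle libraries, and 38 genes had a lower fold change. Taken over summed counts per scaled library size, the 3 d level was 0.0625 of the vehicle level, with an exact 95% interval of 0.0167 to 0.165 that covers counting error alone. In these bulk samples fewer cells that express a gene and less RNA per cell cannot be told apart.

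At 18 h the level of Akr1c18 overlapped that under vehicle. The log2 fold change was 0.78 ± 0.39. Its approximate 95% interval ran from 0.02 to 1.55, and it is narrower than one that allows for the few libraries. No change and a rise of up to about that size are therefore both within the error. The 18 h minus vehicle difference was 1.003 without the 18 h replicates 2 and 3. Between 3 d and 18 h, the contrast that chose the gene, its log2 fold change was -4.69 ± 0.67, the third lowest of 7965. The authors' deposited table, whose ratios run the other way, gives 4.82 for 18 h over 3 d, 4.07 for vehicle over 3 d and -0.75 for vehicle over 18 h.

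Calca was high at 18 h and low in both other groups. The 3 d libraries held 8, 11, 2 and 7 Calca counts, or 5.32, 10.4, 1.69 and 4.82 CPM. The 18 h libraries held 150, 30, 68, 24 and 148 counts, or 125.4, 25.7, 50.04, 11.3 and 101.6 CPM. The vehicle libraries held 12, 4, 6, 6 and 2 counts, or 6.09, 4.45, 3.05, 3.31 and 1.54 CPM. All 5 libraries of 18 h lay above every library of the other groups, though replicate 4 exceeded the highest 3 d library by little, and the 3 d and vehicle libraries overlapped.

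The means of Calca were 5.57 ± 3.62 CPM at 3 d (SD, n = 4), 62.8 ± 49.0 CPM at 18 h (SD, n = 5) and 3.69 ± 1.70 CPM under vehicle (SD, n = 5). Against vehicle, Calca was 16.3-fold higher at 18 h, with a log2 fold change of 4.02 ± 0.66, and was higher in 5 of 5 libraries. Of all genes tested, 9.45% had 18 h libraries all above the vehicle libraries, and 18 genes had a higher fold change. Calca's log2 fold change was 4.36 when the 18 h replicates 2 and 3 were left out. At 3 d the log2 fold change against vehicle was 0.53 ± 0.89, and its interval of -1.23 to 2.28 holds both a fall and a rise of several fold. Over summed counts, Calca at 3 d was 1.43 times its vehicle level, with an exact 95% interval of 0.822 to 2.47 for counting error alone.

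Between 3 d and 18 h the log2 fold change of Calca was -3.49 ± 0.70, the 18th lowest of 7965, given as a description of the choice. The authors' deposited table gives Calca as 3.5 for 18 h over 3 d, -4.07 for vehicle over 18 h and -0.57 for vehicle over 3 d.

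**Figure D2:**
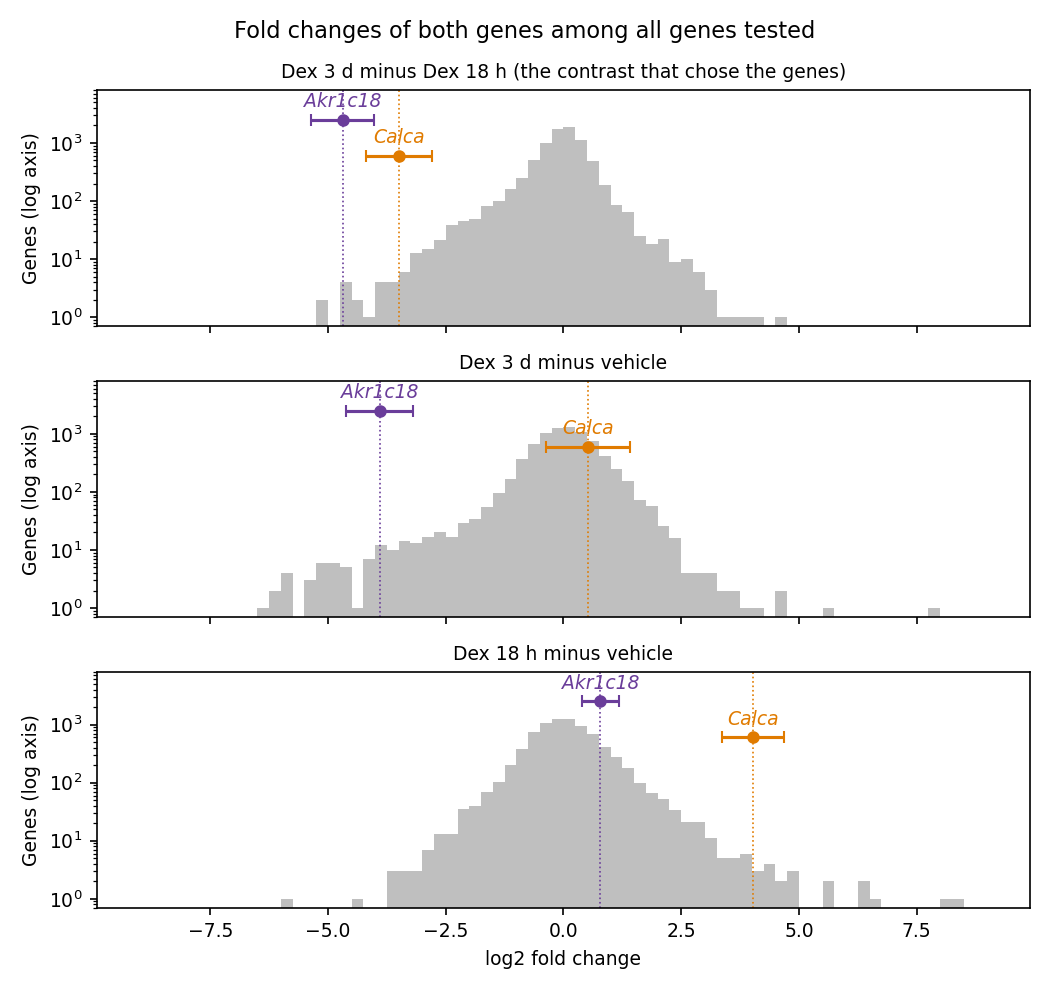
Distribution of log2 fold changes of the 7965 genes tested (grey, number of genes on a log axis) for 3 d minus 18 h, 3 d minus vehicle and 18 h minus vehicle, with Akr1c18 (purple) and Calca (orange) drawn as fold change ± SE at an arbitrary height. Akr1c18 lies far to the left at 3 d against vehicle (-3.90) and Calca far to the right at 18 h against vehicle (4.02), while the other gene of each panel lies near the bulk.

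The spread among replicates depended on the group. At 18 h Calca had a coefficient of variation of 78.1%, and 31 of the 2893 genes within 2-fold of its mean level had a higher one (median 20.02%). Akr1c18 had 51.6% at 18 h, against a median of 26.9% over 3264 genes of like level, and 56.5% under vehicle, against 27.5% over 2900 genes. For Akr1c18 at 3 d and Calca under vehicle the spread was not wide for the level. Akr1c18 at 3 d had 71.8% against a median of 85.5% over 39 genes, and Calca under vehicle had 45.97% against 42.7% over 781 genes. Calca at 3 d was low too but spread more widely, at 65.0% against a median of 38.5% over 1388 genes, 147 of which had a higher one. The order of libraries differed between the pair: at 18 h replicate 4 had the lowest Calca level and the second highest Akr1c18 level, while replicate 1 had the highest Calca level and the lowest Akr1c18 level. Across all 14 libraries their log2 CPM gave Pearson's r = 0.445, a description over points that share the 3 groups.

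In the order of all fold changes of 3 d minus 18 h, the genes next to Akr1c18 were Neil3 (-5.14), a DNA glycosylase, and Mgarp (-5.03), a mitochondrial protein, on the steeper side, and Ppic (-4.65), a cyclophilin, Endou (-4.57), an endoribonuclease, and the CD8 chain gene Cd8b1 (-4.54) on the other. Next to Calca stood Csrp2 (-3.67), Neb (-3.64) and Troap (-3.58) on the steeper side and Cntnap1 (-3.44), Lrr1 (-3.42) and Cd8a (-3.41) on the other. These log2 fold changes show where the pair lay in that order and are not tested. Mgarp averaged 0.338 CPM at 3 d, 15.3 CPM at 18 h and 0.212 CPM under vehicle, high at 18 h alone as Calca was, whereas Neil3 averaged 0.166, 10.0 and 18.9 CPM in those groups and so, like Akr1c18, had counts in both groups other than 3 d.

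The genes whose log2 CPM over the 14 libraries was most like that of Akr1c18 were Sord, which encodes sorbitol dehydrogenase (r = 0.882), the glycosyltransferase gene B3galt4 (0.881), Pop1, a protein subunit of ribonuclease P (0.878), Tspan31 (0.875), the peptide-loading factor gene Tapbp (0.857), Rpph1, the RNA subunit of ribonuclease P (0.857), Pdlim1 (0.853) and Tspyl4 (0.853). All 8 had their lowest group mean at 3 d. Sord averaged 5.00 CPM at 3 d, 16.5 CPM at 18 h and 11.7 CPM under vehicle, and Rpph1 averaged 2.28, 36.0 and 43.4 CPM in those groups. Calca was most like Mt1, a metal-binding metallothionein (r = 0.920), Slc15a3, a lysosomal peptide and histidine transporter (0.917), the cytokine signalling inhibitor gene Socs1 (0.914), the co-chaperone gene Dnajc7 (0.912), the ceramidase gene Acer2 (0.908), Jdp2, a repressor of AP-1 (0.907), Rbm33 (0.903) and Khdc3 (0.903). All 8 had their highest group mean at 18 h. Mt1 averaged 16.1 CPM at 3 d, 70.1 CPM at 18 h and 9.52 CPM under vehicle, and its lowest 18 h library was replicate 4, as for Calca. These correlations mix the differences between the 3 groups with those between replicates and were picked as the highest of 7964.

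**Figure D3:**
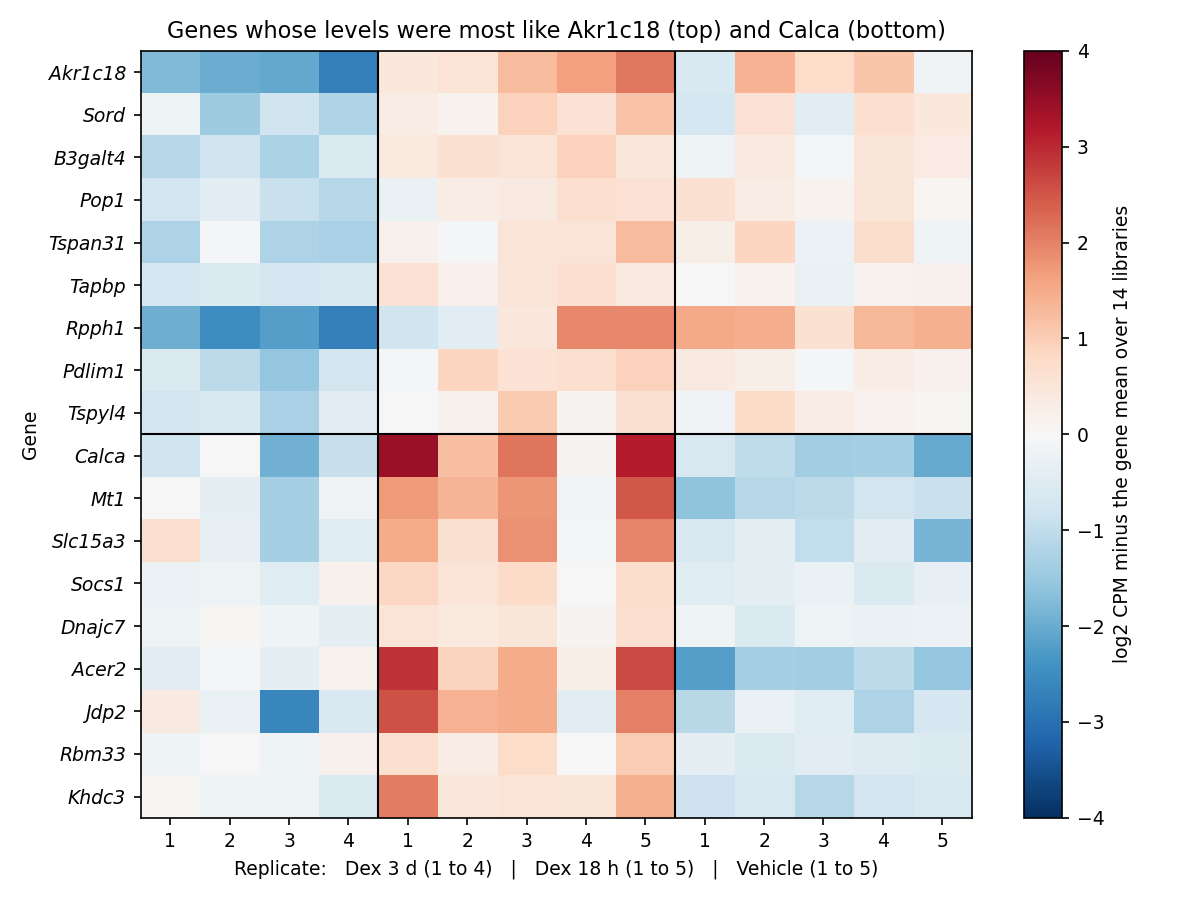
Log2 CPM (prior count 2) minus each gene's mean over 14 libraries, for Akr1c18 and its 8 most alike genes (upper rows) and Calca and its 8 (lower rows), with libraries of 3 d, 18 h and vehicle from left to right; red is above the gene's mean and blue below. The upper rows are mostly blue at 3 d, and the lower rows are mostly red at 18 h, palest in replicate 4.

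Genes other than Akr1c18 and Calca were tested with edgeR's quasi-likelihood test. The genes around both members were drawn from 6 lists with 110 names: the aldo-keto reductases, steroid metabolism, prostaglandins, the CGRP family and receptors, prohormone processing, and cAMP and NR4A regulators. Of these, 56 were listed in the table and 44 passed the filter. At 3 d against vehicle 2 rose and 9 fell, with 25.9% of all genes called, and the median log2 fold change was -0.05 for the lists and 0.03 for all genes. At 18 h against vehicle 5 rose and 11 fell, with 34.3% of all genes called, and the medians were -0.14 for the lists and 0.01 for all genes. Between 3 d and 18 h 1 was higher at 3 d and 3 were lower, where 11.7% of all genes were called, and the medians were -0.07 and -0.01. These shares lay near the background in every comparison.

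None of the other aldo-keto reductases tested was called at 3 d against vehicle. Of 16 genes in the family list, 6 were listed and 4 tested, and 1 fell at 18 h. Of all genes, 25.9% were called at 3 d and 34.3% at 18 h, so counts among 4 genes do not set the family apart. Akr1c13, the nearest tested relative, held 21, 5, 21 and 16 counts at 3 d, 14, 12, 11, 67 and 11 counts at 18 h and 22, 21, 36, 23 and 19 counts under vehicle. Its libraries overlapped between all groups, with means of 11.9 ± 5.50, 13.8 ± 10.1 and 16.0 ± 4.88 CPM for 3 d, 18 h and vehicle, and its log2 fold change at 3 d against vehicle was -0.38 ± 0.41 (adjusted p = 0.519, edgeR). Akr1c12, the other relative of the cluster in the table, had 9, 22 and 12 counts summed over those groups and was not tested. Akr1e1 averaged 2.90 ± 0.609 CPM at 3 d, 7.21 ± 3.14 CPM at 18 h and 6.87 ± 3.06 CPM under vehicle and did not pass the filter. Akr1a1, an aldehyde reductase, averaged 386 ± 72.6 CPM at 3 d, 402.9 ± 39.3 CPM at 18 h and 485 ± 45.0 CPM under vehicle and was not called (adjusted p = 0.105 and 0.141 against vehicle). Akr7a5, an aflatoxin aldehyde reductase, fell by 0.54 on the log2 scale at 18 h (adjusted p = 0.0418, edgeR). That call was lost without any one of the 18 h replicates 1, 2 and 3 or the vehicle replicates 1, 2 and 5, at -0.54 to -0.46 and an adjusted p of 0.0654 to 0.109, and without the 18 h replicates 2 and 3 together, at -0.37 (adjusted p = 0.239).

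In steroid metabolism 12 of 27 genes were tested, and 3 fell at 3 d and 5 at 18 h against vehicle, with none higher, where 13.8% of all genes were called lower at 3 d and 17.3% at 18 h. Srd5a3, a polyprenol reductase of glycosylation, averaged 37.9 ± 8.38 CPM at 3 d, 42.5 ± 11.8 CPM at 18 h and 66.9 ± 5.63 CPM under vehicle, with log2 fold changes of -0.81 ± 0.21 at 3 d (adjusted p = 0.00718) and -0.66 ± 0.19 at 18 h (adjusted p = 0.0114). Hsd17b10, a mitochondrial dehydrogenase that is also part of mitochondrial ribonuclease P, fell by 0.59 on the log2 scale at 18 h (adjusted p = 0.00672) and by 0.46 at 3 d (adjusted p = 0.0486). Hsd17b12, of fatty acid elongation, fell by 0.58 at 18 h (adjusted p = 0.0136) and by 0.60 at 3 d (adjusted p = 0.0217), all by edgeR. Hsd11b1, which reactivates glucocorticoid inside cells, averaged 65.2 ± 23.8 CPM at 3 d, 32.0 ± 23.2 CPM at 18 h and 64.5 ± 16.7 CPM under vehicle and fell by 1.05 at 18 h against vehicle (adjusted p = 0.0458). H2-Ke6, also named Hsd17b8 and part of mitochondrial fatty acid synthesis, fell by 0.37 at 18 h (adjusted p = 0.0406) and was higher at 3 d than at 18 h, by 0.57 ± 0.15 (adjusted p = 0.0125).

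Several of these steroid calls lay near the threshold, with similar fold changes when a library was left out, apart from Hsd11b1. The Hsd17b10 call at 3 d was lost without the 18 h replicate 3 or 5, the 3 d replicate 1, 2 or 3, or the vehicle replicate 1, 2, 4 or 5 (-0.51 to -0.39, adjusted p of 0.0514 to 0.124, edgeR). The Hsd17b12 call at 3 d was lost without the 3 d replicate 2 or 3 or the vehicle replicate 4 (-0.58 to -0.54, adjusted p of 0.0502 to 0.0735). The 18 h call of H2-Ke6 was lost without the 18 h replicate 1, 3 or 5 or the vehicle replicate 2, 4 or 5 (-0.40 to -0.30, adjusted p of 0.0571 to 0.117), and that of Hsd11b1 without any one library other than the 18 h replicate 2 and the 3 d replicate 2 (-1.13 to -0.85, adjusted p of 0.0513 to 0.103). Over all 14 fits that left out 1 library, Hsd11b1 at 18 h ranged over -1.55 to -0.85 (adjusted p of 8.8e-04 to 0.103, edgeR). Without the 18 h replicates 2 and 3 together H2-Ke6 was at -0.43 at 18 h (adjusted p = 0.0544). The progesterone receptor gene Pgr was not analysed here.

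In the prostaglandin list 8 of 24 genes were tested, and 1 fell at 3 d and none was called at 18 h, where 25.9% and 34.3% of all genes were called. The gene was Ptgir, the prostacyclin receptor, which raises cAMP. It had 6.64, 2.85, 1.69 and 2.07 CPM at 3 d, 11.7, 12.8, 13.98, 4.24 and 10.99 CPM at 18 h and 7.11, 13.3, 12.2, 10.5 and 9.25 CPM under vehicle. The 3 d libraries lay below all vehicle libraries, as in 12.2% of all genes tested, but overlapped 18 h through its replicate 4. Ptgir fell by 1.57 on the log2 scale at 3 d against vehicle (SE 0.44, adjusted p = 0.0124, edgeR), and at 18 h its log2 fold change was 0.02 ± 0.35 (adjusted p = 0.972).

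Between 3 d and 18 h Ptgir differed by -1.59 ± 0.44 (adjusted p = 0.0211, edgeR), a call lost without the 18 h replicate 3 or the 3 d replicate 2, 3 or 4 (-1.52 to -1.39, adjusted p of 0.0574 to 0.0757) or without the 18 h replicates 2 and 3 together (-1.31, adjusted p = 0.120). Without the 3 d replicate 1 the log2 fold change of Ptgir was -2.22 against vehicle and -2.23 against 18 h. Over the 14 libraries the log2 CPM of Ptgir and Akr1c18 had r = 0.767, the 70th highest for Akr1c18 of 7964. Ptger4, a prostaglandin E2 receptor, was not called, with 37.4 ± 12.3 CPM at 3 d, 30.9 ± 10.0 CPM at 18 h and 38.7 ± 12.3 CPM under vehicle. Ptgs1, Ptgs2 and Hpgds were not analysed here.

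Among the receptors for the CGRP family, Ramp3, which pairs with CALCRL to make an adrenomedullin receptor, was high at 18 h together with Calca. Ramp3 had 27.2, 28.5, 15.3 and 37.9 CPM at 3 d, 261.7, 61.6, 161.9, 25.9 and 204.6 CPM at 18 h and 3.05, 13.3, 8.64, 4.42 and 7.71 CPM under vehicle. The 18 h libraries stood in the same order for Ramp3 as for Calca, from replicate 1 through 5, 3 and 2 to 4. All lay above the vehicle libraries, as in 9.45% of all genes tested, while replicate 4 lay within the 3 d range. Its means were 27.2 ± 9.28, 143.2 ± 98.2 and 7.43 ± 4.02 CPM for 3 d, 18 h and vehicle.

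Ramp3 rose 20.5-fold at 18 h against vehicle, with a log2 fold change of 4.36 ± 0.62 (adjusted p = 1.5e-04, edgeR). At 3 d against vehicle it was 1.99 ± 0.70 and was not called (adjusted p = 0.0520, edgeR). Ramp3 was lower at 3 d than at 18 h, with a log2 difference of -2.37 ± 0.58 (adjusted p = 0.0162, edgeR), and without the 3 d replicate 3 it was at -2.18 with an adjusted p of 0.0523. Across the 14 libraries the log2 CPM of Ramp3 and Calca had r = 0.892, the 12th highest for Calca of 7964.

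The partner that makes the CGRP receptor, Ramp1, averaged 31.9 ± 4.50 CPM at 3 d, 53.7 ± 19.6 CPM at 18 h and 48.2 ± 3.90 CPM under vehicle. It was not called against vehicle, at -0.59 ± 0.24 for 3 d (adjusted p = 0.0673) and 0.17 ± 0.21 for 18 h (adjusted p = 0.549), and it was lower at 3 d than at 18 h, with a log2 difference of -0.76 ± 0.23 (adjusted p = 0.0363, edgeR). That call was lost without the 18 h replicate 3, 4 or 5 or any one of the 3 d replicates (-0.82 to -0.58, adjusted p of 0.0524 to 0.122). Its 18 h libraries ran from 27.6 CPM in replicate 1 to 78.7 CPM in replicate 4, the reverse ends of the order of Calca. Calcrl, the receptor itself, had 7 counts at 3 d, 12 at 18 h and 6 under vehicle summed over libraries, too few to test. Crcp, a receptor-associated protein that is also a subunit of RNA polymerase III, fell by 0.57 on the log2 scale at 3 d (adjusted p = 0.0178) and by 0.54 at 18 h (adjusted p = 0.0116), and the 3 d call was lost without the 3 d replicate 3 (-0.52, adjusted p = 0.0603) and the 18 h call without the 18 h replicates 2 and 3 together (-0.48, adjusted p = 0.0700).

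**Figure D4:**
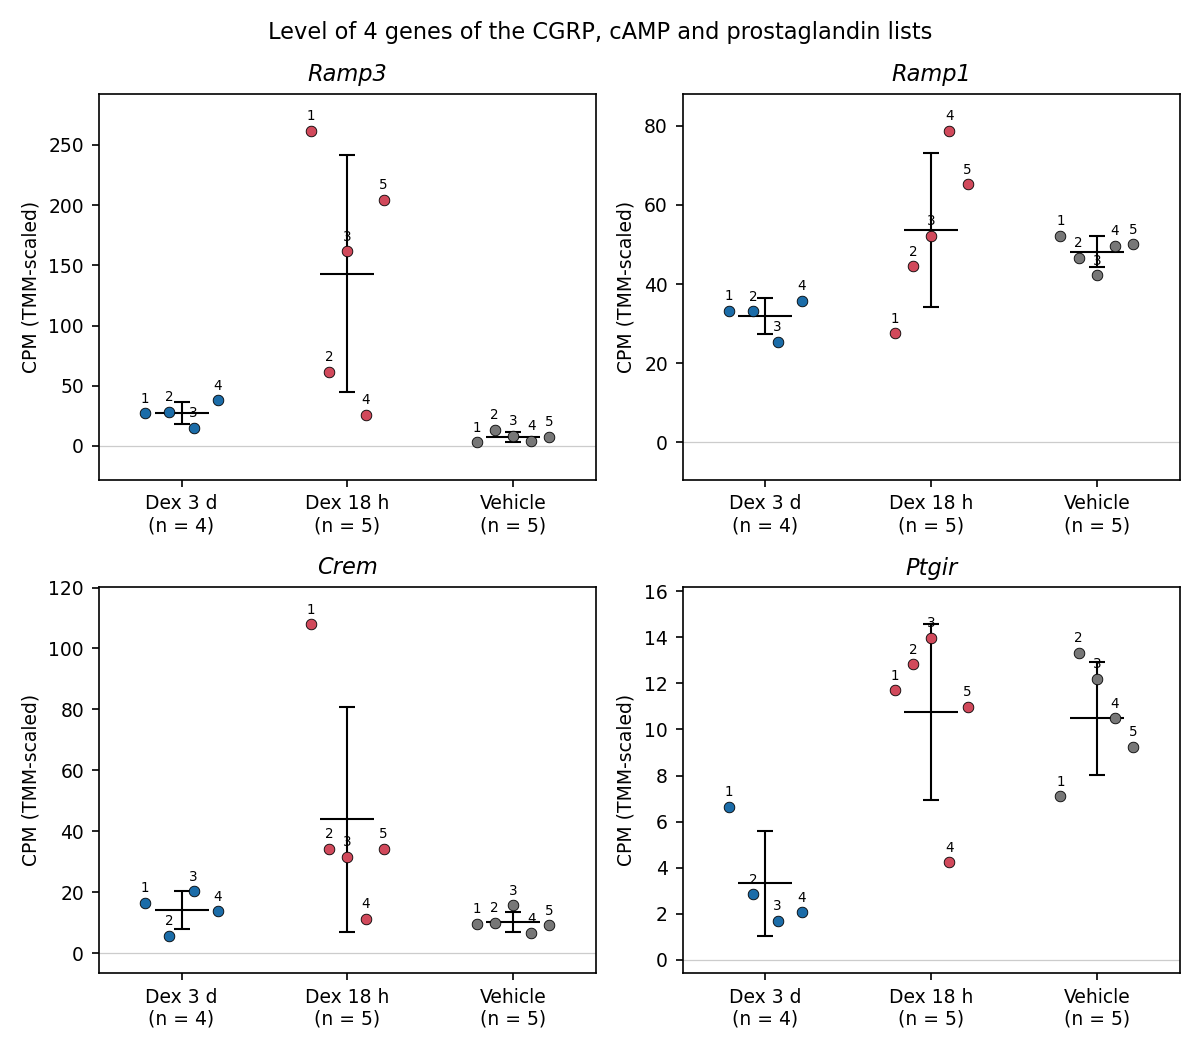
Ramp3, Ramp1, Crem and Ptgir in each library, in TMM-scaled CPM on linear axes, for 3 d, 18 h and vehicle; numbered points are libraries and bars are the mean and SD. Ramp3 and Crem are high in most 18 h libraries but not in replicate 4 (25.9 and 11.3 CPM), and Ptgir is low at 3 d (1.69 to 6.64 CPM).

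Of 15 prohormone-processing genes, 2 passed the filter. Pcsk7, a proprotein convertase of the secretory pathway, fell at both times, with 41.0 ± 7.01 CPM at 3 d, 49.7 ± 9.19 CPM at 18 h and 79.2 ± 16.5 CPM under vehicle. Its log2 fold change was -0.95 ± 0.20 at 3 d (adjusted p = 0.00155) and -0.67 ± 0.18 at 18 h (adjusted p = 0.00709, edgeR). Furin, a convertase of the Golgi, was not called, with 40.0 ± 7.07, 47.3 ± 17.8 and 35.0 ± 4.54 CPM for 3 d, 18 h and vehicle. Pcsk1, a convertase of peptide hormones in neuroendocrine cells, averaged 0.212 CPM at 3 d, 2.13 CPM at 18 h and 2.12 CPM under vehicle and was not tested. Pam, which amidates CGRP and calcitonin, was not analysed here.

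Of 18 cAMP and NR4A regulators, 15 were tested, and 2 rose and 3 fell at 3 d against vehicle, whereas 4 rose and 3 fell at 18 h, beside 25.9% and 34.3% of all genes called. Crem, whose inducible product represses cAMP-responsive genes, averaged 14.1 ± 6.22 CPM at 3 d, 43.9 ± 37.0 CPM at 18 h and 10.3 ± 3.35 CPM under vehicle, and its 18 h replicate 1 reached 107.9 CPM. It rose at 18 h by 2.05 ± 0.49 on the log2 scale (adjusted p = 0.00479, edgeR), or by 1.40 without that replicate (adjusted p = 0.00495), and at 3 d it was 0.46 ± 0.57 against vehicle (adjusted p = 0.574). The nuclear receptor gene Nr4a3 rose by 1.74 ± 0.54 at 3 d (adjusted p = 0.0204) and by 1.91 ± 0.50 at 18 h (adjusted p = 0.00575). The 3 d call of Nr4a3 was lost without the 3 d replicate 1 (1.52, adjusted p = 0.0827), and its 18 h call was lost at 0.92 without the 18 h replicates 2 and 3 together (adjusted p = 0.166). Nr4a1, which in the rat ovary switches on the Akr1c18 gene, averaged 193 ± 43.3 CPM at 3 d, 211 ± 114 CPM at 18 h and 123 ± 23.7 CPM under vehicle and was not called (adjusted p = 0.131 and 0.0517 against vehicle).

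Crtc2, a coactivator of CREB, rose by 0.46 at 3 d (adjusted p = 0.0366) and by 0.53 at 18 h (adjusted p = 0.00850), and its relative Crtc3 fell by 0.67 at 3 d (adjusted p = 0.00433) and by 0.43 at 18 h (adjusted p = 0.0274). Prkacb, a catalytic subunit of protein kinase A, fell by 0.50 at 3 d (adjusted p = 0.0132) and by 0.80 at 18 h (adjusted p = 1.3e-04). Gnas, the stimulatory G protein that couples CALCRL and PTGIR to cAMP, from a locus of overlapping transcripts that makes its count uncertain, fell by 0.69 at 3 d (adjusted p = 0.00354) and by 0.40 at 18 h (adjusted p = 0.0432), all on the log2 scale by edgeR. The fourth gene that rose at 18 h was Atf1, a CREB relative named here after its values were seen, at 0.95 ± 0.33 (adjusted p = 0.0321). The 3 d call of Crtc2 was lost without any one of the 3 d libraries or the vehicle replicates 1, 2, 4 and 5 (0.41 to 0.47, adjusted p of 0.0545 to 0.0940). The 18 h call of Crtc3 was lost without the 18 h replicate 1, 2 or 3 or the vehicle replicate 1 or 4 (-0.43 to -0.37, adjusted p of 0.0508 to 0.0844), and that of Gnas without the 18 h replicate 2, 3 or 5 or the vehicle replicate 2, 4 or 5 (-0.39 to -0.34, adjusted p of 0.0790 to 0.106). Without the 18 h replicates 2 and 3 together Crtc3 was at -0.37 (adjusted p = 0.126) and Gnas at -0.28 (adjusted p = 0.236) at 18 h.

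The levels of subset and other cell markers moved too, and their part in the values of Akr1c18 and Calca was not tested. The NKT2 list was drawn up for the type 2 subset, and its genes are not all particular to it. Of 12 NKT2 genes tested, 5 fell and none rose at 3 d against vehicle. At 18 h 2 rose, Plac8 and Ccr7, and 2 fell, Il13 and Hivep3. The medians were -1.01 at 3 d and 0.20 at 18 h on the log2 scale. Of all genes, 25.9% were called at 3 d (13.8% lower) and 34.3% at 18 h (17% higher and 17.3% lower). Zbtb16, the transcription factor PLZF of innate-like T cells, averaged 18.2 ± 5.83 CPM at 3 d, 49.4 ± 23.3 CPM at 18 h and 69.1 ± 16.7 CPM under vehicle, and Il13, a type 2 cytokine, averaged 5.54 ± 2.37, 19.6 ± 9.49 and 85.4 ± 12.9 CPM. Over the 14 libraries Akr1c18 had r = 0.721 with Zbtb16 and 0.614 with Il13, ranks 130 and 358 from the highest of 7964. Calca had 0.0901 and -0.17, ranks 3546 and 5007. Akr1c18 was chosen by its fall to 3 d, and Zbtb16 and Il13 also had their lowest means there, so these r values only describe that. Of the NKT2 genes, r is given for Zbtb16 and Il13 alone, and a link to the type 2 subset was not tested. Il4 and Gata3, also of the type 2 subset, were not called in any comparison, with 54.6 ± 6.17 and 131 ± 12.7 CPM at 3 d, 44.9 ± 18.2 and 127 ± 38.1 CPM at 18 h, and 60.3 ± 23.3 and 102 ± 29.7 CPM under vehicle. Of 12 NKT1 genes, 1 rose at 3 d and 11 fell at 18 h against vehicle. Of 6 NKT17 genes tested, 2 fell at 3 d and 1 rose and 5 fell at 18 h. Between 3 d and 18 h, where 11.7% of all genes were called, 9 NKT2 genes were lower at 3 d and 0 higher (median -1.36). In that comparison 11 NKT1 genes were higher at 3 d and 0 lower (median 2.21), and 3 NKT17 genes were higher and 0 lower (median 0.72).

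Markers of other cells that a thymic sort could hold are given as summed CPM, lowest to highest library. Of 12 markers of thymic epithelial, tuft and neuroendocrine cells, Krt5 and Krt18 alone were in the table, at 0.847 to 9.97 at 3 d, 0.856 to 3.77 at 18 h and 0 to 1.54 under vehicle. The 8 macrophage genes summed to 2033 to 7584 at 3 d, 411 to 1930 at 18 h and 789 to 1628 under vehicle, and by this sum the 3 d libraries lay above all others. Most of the sum at 3 d was Apoe, which averaged 3126, 673 and 457 CPM at 3 d, 18 h and under vehicle. Of 7 macrophage genes tested, 2 rose and 0 fell at 3 d against vehicle, beside 25.9% of all genes called. Between 3 d and 18 h 1 was higher at 3 d and 1 lower. The 9 listed of 10 CD4+CD8+ thymocyte genes summed to 133 to 173 at 3 d, 174 to 1572 at 18 h and 255 to 501 under vehicle. Most of the sum at 3 d and under vehicle was Cd4, which averaged 97.9 and 285 CPM there. Rag1 and Ptcra had 0 CPM at 3 d, and Dntt averaged 0.55 CPM. The sum is therefore not a measure of these thymocytes in those groups. Group 2 innate lymphoid cell genes (5 of 8 listed) summed to 157 to 198, 99.5 to 227 and 142 to 221, mast cell and basophil genes (2 of 8) to 52.4 to 58.4, 30.0 to 109.5 and 58.5 to 75.6, and B cell genes (2 of 6) to 3.39 to 9.48, 0.836 to 14.6 and 2.03 to 12.7 in 3 d, 18 h and vehicle libraries. Most of the innate lymphoid sum was Gata3, also in the NKT2 list, and Ccr8, which averaged 47.3, 30.7 and 65.2 CPM in those groups. The other listed genes, Il1rl1, Areg and Rora, averaged at most 4.94 CPM in any group. Most of the mast cell and basophil sum was Il3ra.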

How the data were processed

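Thymic NKT cells from 14 libraries (4 of 3 d, 5 of 18 h, 5 of vehicle) were profiled by bulk MARS-seq. The authors deposited 1 table of raw counts per gene with normalized values beside them, per the file headers, and their own log2 fold changes with p-values and adjusted p-values. Each library's normalized signal in the deposited table was its raw counts divided by 1 constant, and it was not used for tests. The submitters' processing notes name bcl2fastq, cutadapt, STAR 2.5.2b, HTSeq, DESeq2 and the build mm10, with no role or order; the treatment of molecular identifiers and of strand in counting was not given in the sources used here.

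Of 10320 rows, 17 named a date instead of a gene, the mark of a spreadsheet, and stayed out of library sizes (0.102% to 0.147% of counts). The highest count of a listed gene was never under 6, and a gene that the table lacks was not analysed here. edgeR 4.0.16 in R 4.3.3 fitted all 14 libraries together (TMM, filterByExpr by group, robust quasi-likelihood test, Benjamini-Hochberg adjustment over 7965 genes, calls at an adjusted p under 0.05), and SE was the log2 fold change over the root of F. Intervals on a fold change are ± 1.96 SE, which makes no allowance for the few libraries and so is somewhat narrow. Intervals on summed counts are exact (Clopper-Pearson) at 95%. Alternatives used DESeq2 1.42.0, limma 3.58.1, other scalings and filters, a replicate block, and fits without each library. The 3 d and 18 h libraries took part in choosing both members, so no p-value of theirs is given, although their comparisons with vehicle were fitted in the same model. Replicate libraries differed beyond sampling noise (chi-square per degree of freedom of at least 3.28), so none was merged.

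The members and gene lists were chosen with earlier results of these data known. Genes were named by rule: up to 6 called genes of each list by smallest adjusted p, a fixed set of receptors, enzymes and subset genes, the 8 genes most alike to each member by Pearson's r of log2 CPM (prior count 2), and up to 3 genes on either side of each member in the order of 3 d minus 18 h. Promoters came from RefSeq (both genes matched), and the motifs were counted in 32851 promoters of 300 bases.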

Additional observations from a re-analysis of the deposited data

Results flagged for a closer look

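Among 60 groups of libraries (20 named genes in 3 groups), 4 held a library far from the others by Dixon's test, which chance alone does in about 1 group in 20. Crem reached 107.9 CPM in 1 library of 18 h, against 11.3 to 34.3 CPM in the others. Pcsk7 stood at 65.9 CPM in 1 library of 18 h, against 43.4 to 47.1 CPM. Crcp was low in 1 vehicle library, at 50.9 CPM against 70.1 to 76.7 CPM. Atf1 was high in 1 vehicle library, at 41.7 CPM against 10.0 to 14.9 CPM.

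For 4 of the 44 list genes tested the effects at both times differed, by edgeR's test of 3 d minus 18 h. Of all genes, 11.7% were called in that comparison, so this count does not set the lists apart. H2-Ke6 differed by 0.57 on the log2 scale (adjusted p = 0.0125), Ramp3 by -2.37 (adjusted p = 0.0162), Ptgir by -1.59 (adjusted p = 0.0211) and Ramp1 by -0.76 (adjusted p = 0.0363). Over the alternatives the Ramp1 call was lost in 10 of 24, that of Ptgir in 6 of 23 and that of Ramp3 in 2 of 24. The H2-Ke6 call was lost in 0 of 24. Both effects share the vehicle libraries, and the lists were chosen with results of these data known.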

How the results depend on the processing

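Against vehicle, the log2 fold change of Akr1c18 at 3 d was -4.36 to -2.62 over 23 alternatives, where -2.62 is a difference of log2 CPM with a prior count of 2, and that of Calca at 18 h was 3.29 to 4.36 over 25. These values use the libraries that chose the genes and are given as ranges with no test. Akr1c18 at 18 h against vehicle ranged over 0.50 to 1.003, with 0.98 by limma voom and sample quality weights, and Calca at 3 d over 0.12 to 0.83.

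With limma voom and quality weights 3139 genes were called at 3 d against vehicle, against 2064 by edgeR, and list members called were 20 of 44 for 3 d minus vehicle and 8 for 3 d minus 18 h. With the 2 groups alone, 607 genes were called for 3 d minus 18 h, against 931, and 2 list members. Without the 18 h replicates 2 and 3 together, 9 list members were called at 18 h against vehicle, against 16. The share of all genes called in that smaller fit is not given here, so the drop is not a result about the lists. Leaving out 1 library at a time gave 9 to 17 list members called for 18 h minus vehicle (fewest without the 18 h replicate 3), 7 to 13 for 3 d minus vehicle (fewest without the 3 d replicate 3) and 1 to 6 for 3 d minus 18 h (1 without the 3 d replicate 3; 2 without the 18 h replicate 3 or the 3 d replicate 2 or 4). Genes called then ranged over 2160 to 3154, 1488 to 2587 and 643 to 1028 in those comparisons. Over 30 called results of list genes named by rule, 608 of 710 alternative values kept the call, 102 lost it and 0 reversed.

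Replicate numbers did not pair the samples: same-numbered libraries deviated together with r of -0.211 to 0.153, and the title and description numbers of 3 d differ. With a replicate block by title number Akr1c18 was at -3.77 at 3 d and Calca at 3.82 at 18 h against vehicle. Genes called then numbered 2489 for 18 h minus vehicle, 1721 for 3 d minus vehicle and 755 for 3 d minus 18 h, and most libraries did not correlate best with their own number. Akr1c18 could not be fitted under a filter of a mean of at least 20 CPM, and neither gene passed the filter with 3 d and vehicle libraries alone. Akr1c18 at 3 d rests on 4 counts in all, which limits the precision of its fold.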
